A study of Equus caballus with 4 samples.

Results

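Titin and the proteins that tie the contractile filaments together at the Z-disc and the M-band were followed as 10 genes. These are TTN, NEB, ACTN2, MYOZ1, MYOZ2, TCAP, LDB3, MYOM1, MYOM2 and MYBPC1. Members were the array probes whose gene name in the deposited files is one of these symbols, which gave 8 probes for 7 genes. The gene name column holds only a transcript identifier for TTN, ACTN2 and LDB3, and the description column names 4 more probes for these 3 genes. The array thus carried 12 probes for 10 genes, among 43603 different probes in all. The 3 genes named only by description are marked as such wherever they are counted.

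The sarcomere, the repeating unit of striated muscle, is bounded by Z-discs and centred on the M-band. At the Z-disc, alpha-actinin crosslinks actin filaments of neighbouring sarcomeres, and at the M-band, myomesins crosslink myosin filaments. Titin runs from the Z-disc to the M-band and works as a molecular spring and scaffold, while nebulin lies along the thin filament. In cultured muscle cells these proteins are made as myoblasts leave the cell cycle and fuse into myotubes.

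The cells were equine satellite cells (ESC), the stem cells of skeletal muscle, isolated from m. semitendinosus and harvested when they had differentiated to day 3. The HMB-treated group received 50 µM β-hydroxy-β-methylbutyrate (HMB), a leucine metabolite, for 24 h, with 3 mM hydrogen peroxide in the last 1 h. The control group received hydrogen peroxide in the same way but no HMB, so both groups were injured cells and neither was unexposed. Donors were stallions aged 6 months, and the methods describe choosing 1 culture by viability and fusion, so the 4 replicates need not be 4 horses and the p-values measure the spread between these samples. On each of 4 two-colour arrays on 1 slide, HMB-treated RNA was labelled with Cy5 and control RNA with Cy3. The labels number the control as rep1 on every array while the series design counts 4 control replicates, so the spread may leave out that of the control. The dyes were not swapped, hence the treatment and the dye cannot be told apart.

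Each spot gave 1 log2 ratio of HMB-treated over control, so a value of -1 means that the HMB-treated signal was at 50.0% of control. A probe was tested where the same channel was well above background on all 4 arrays, and this left 24670 probes. A call required an FC of 1.3 or more together with an adjusted p not above 0.05, from limma with Benjamini-Hochberg adjustment over all of them. Among the tested probes, 4050 (16.4%) were called lower and 2996 (12.1%) higher in the HMB-treated group. Of the called probes 42.5% were higher, and this share was 55.0% after normexp and loess, 60.1% after loess without background correction, 52.5% after median centring and 6.71% after scaling to spike-in RNA. Between 55.2% and 61.8% of spots were well above background in a channel of an array, and 0 were saturated. Across probes, which are no independent replicates, Pearson's r between the ratios of 2 arrays was 0.837 to 0.920. With 4 arrays, precision is limited throughout.

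All 10 member probes that could be tested were called lower in the HMB-treated group, beside 16.4% of all tested probes. By the gene name column these were 7 of 7 tested probes from 6 genes (NEB, MYOZ1, MYOZ2, TCAP, MYOM1 and MYOM2). The description column added 3 of 3 tested probes from TTN and ACTN2. Mean log2 ratios lay between -1.24 for TCAP and -0.82 for the less lowered MYOZ1 probe, corresponding to an FC of 2.36 and 1.76. On every array, every one of these 10 probes had a ratio below 0, and for all 10 the highest HMB-treated signal was below the lowest control signal. The share of all tested probes with either pattern is not given here, so neither count sets the members apart. LDB3 and MYBPC1 were not well above background in either channel on any array and were not tested.

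**Figure D1:**
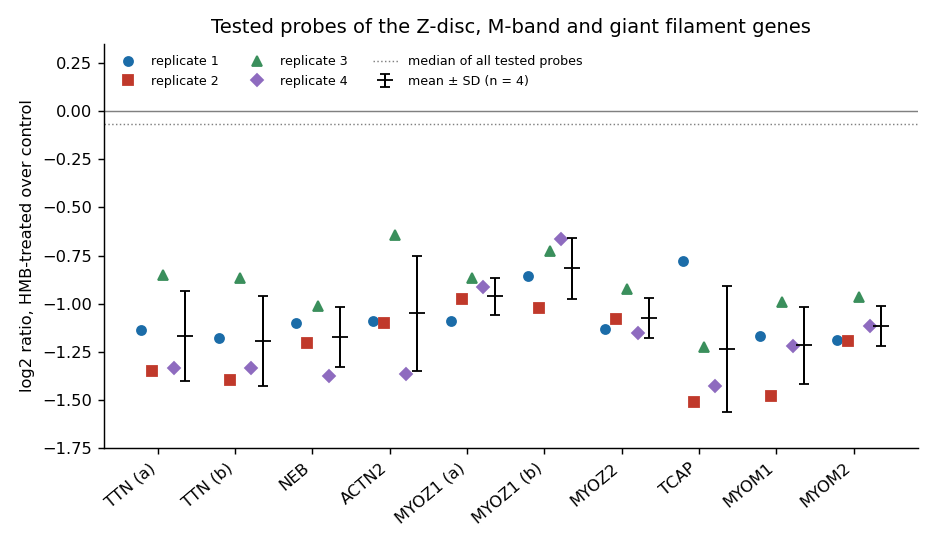
Log2 ratio of HMB-treated over control for the 10 tested member probes, with 1 symbol for each of the 4 arrays and the mean ± SD beside them. TTN (a) and (b) start at bases 106671 and 106592 of the transcript, and MYOZ1 (a) and (b) at 1463 and 1443. All 40 ratios are below 0, and replicate 3 is the least lowered for most genes.

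Two-colour arrays read each gene through a short probe, so the piece of transcript behind a value is part of the measurement. The probes of NEB, ACTN2, TCAP, MYOM1 and MYOM2 are shown because the counts above rest on them, and those of LDB3 and MYBPC1 because these were the probes without signal. Capitals in the myomesin probes mark the longest run of bases that both share, 14 of 60. Between probes of any other 2 member genes, MYOZ1 left out, the longest shared run was 8 bases.
NEB: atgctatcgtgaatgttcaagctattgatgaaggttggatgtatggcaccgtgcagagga
ACTN2: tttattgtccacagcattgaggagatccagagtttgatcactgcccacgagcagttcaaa
TCAP: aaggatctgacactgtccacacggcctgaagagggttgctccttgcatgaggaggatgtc
MYOM1: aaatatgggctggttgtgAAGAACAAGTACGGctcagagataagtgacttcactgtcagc
MYOM2: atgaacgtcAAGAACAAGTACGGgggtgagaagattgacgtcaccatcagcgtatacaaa
LDB3: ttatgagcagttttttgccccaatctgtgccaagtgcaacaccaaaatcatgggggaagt
MYBPC1: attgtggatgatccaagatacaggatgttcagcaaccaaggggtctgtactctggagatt

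Of the giant proteins, titin was read by 2 probes named only in the description column. They lie on EquCab1 at chr18:45232412-45232471 and chr18:45232491-45232550, both on the minus strand, and their starts are 79 bases apart on the transcript. The files give no exon or coding boundary for any probe. The processed signal of the first titin probe in control cells was 4292, 4463, 5149 and 5170 in replicates 1 to 4. In HMB-treated cells it was 1950, 1753, 2859 and 2047. No HMB-treated signal came near the control range. The log2 ratios were -1.14, -1.35, -0.85 and -1.34, with a mean of -1.17 ± 0.23 (SD, n = 4), an FC of 2.25 and an adjusted p of 0.00029. The second titin probe gave -1.18, -1.40, -0.87 and -1.33, with a mean of -1.19 ± 0.24 (SD, n = 4) and an adjusted p of 0.000274. Both probes placed the arrays alike, with replicate 3 the least lowered, and on no array did they differ by more than 0.05 on the log2 scale.

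Nebulin, which spans the thin filament from the Z-disc, was read at chr18:22089224-22089283 on the minus strand. Its NEB probe had control signals of 1199, 1356, 1523 and 1240 and HMB-treated signals of 558, 589, 755 and 477. The log2 ratios were -1.10, -1.20, -1.01 and -1.38. Replicate 4 was the most lowered and replicate 3 the least. The mean of -1.17 ± 0.16 (SD, n = 4) corresponded to 44.3% of control, with an adjusted p of 0.000116. The first titin probe and the NEB probe, which differ in sequence and brightness, thus had the same mean to 2 decimals.

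Alpha-actinin 2 is the muscle actin crosslinker of the Z-disc. Its ACTN2 probe, named by description, matches bases within chr1:72050345-72051916 on the minus strand, a span of 1572 bases for a probe of 60, so it crosses at least 1 gap on the genome. Control signals were 1291, 1141, 1163 and 1099, and HMB-treated signals were 606, 531, 745 and 426. Here the control signals were close together, and the spread of the ratios lay in the HMB-treated channel. The log2 ratios of -1.09, -1.10, -0.64 and -1.37 had a mean of -1.05 ± 0.30 (SD, n = 4), with an FC of 2.07 and an adjusted p of 0.000896, the highest among the member probes.

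Myozenins bind alpha-actinin and the phosphatase calcineurin at the Z-disc. MYOZ1, known from fast fibres, had 2 probes on chr1, at 60718522-60718581 and 60718542-60718601 on the minus strand. They share 40 bases and are not separate readings of the gene. The first had control signals of 357, 372, 451 and 373 and HMB-treated signals of 168, 189, 248 and 198. Its log2 ratios were -1.09, -0.98, -0.86 and -0.91, with a mean of -0.96 ± 0.10 (SD, n = 4) and an adjusted p of 0.000132. The second, slightly brighter and used as the gene's value, had ratios of -0.86, -1.02, -0.72 and -0.66, with a mean of -0.82 ± 0.16 (SD, n = 4) and an adjusted p of 0.000502. On a single array the 2 probes differed by 0.05 to 0.25. MYOZ1 was the least or next to least lowered of the 8 tested genes on every array.

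MYOZ2, the myozenin of slow fibres and heart, was the brightest member probe, at chr2:93783581-93783640 on the minus strand. Control signals were 27084, 23203, 30031 and 26769, and HMB-treated signals were 12358, 10960, 15816 and 12036. The log2 ratios were -1.13, -1.08, -0.93 and -1.15. With a mean of -1.07 ± 0.10 (SD, n = 4) and an adjusted p of 8.79e-05, the arrays differed little. HMB-treated cells had 47.5% of the control signal.

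Telethonin, encoded by TCAP, caps the ends of titin at the Z-disc. The TCAP probe lies within chr11:21486844-21487163 on the minus strand and was the dimmest that was tested. Control signals were 98.8, 169, 174 and 82.0, and HMB-treated signals were 57.5, 59.2, 74.2 and 30.5. All control signals were well above background, but the HMB-treated signal was so on 3 arrays and not in replicate 4. The log2 ratios were -0.78, -1.51, -1.23 and -1.43, with a mean of -1.24 ± 0.33 (SD, n = 4) and an adjusted p of 0.000612. This was the largest mean fall and the largest spread among the members. In replicate 1 TCAP was the least lowered of the 8 genes, and in the other 3 arrays it was the most lowered. Under normexp and loess its mean was -0.41, although the probe was still called.

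LDB3, also called ZASP, links alpha-actinin to signalling proteins at the Z-disc. Its probe, named by description, lies within chr1:80941880-80942542 on the minus strand. Control signals were 21.6, 24.7, 19.0 and 27.8 and HMB-treated signals 13.2, 24.9, 18.1 and 17.2, none well above background. No fold was derived from them.

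At the M-band, MYOM1 encodes myomesin 1, which bridges myosin filaments and binds titin. Its probe lies at chr8:36632224-36632283 on the minus strand. Control signals of 728, 685, 745 and 711 stood against HMB-treated signals of 323, 245, 374 and 305. The control channel varied by 3.53% (coefficient of variation, n = 4), the least of the tested member probes, and the HMB-treated channel by 17.0%. The log2 ratios were -1.17, -1.48, -0.99 and -1.22, with a mean of -1.22 ± 0.20 (SD, n = 4), an FC of 2.32 and an adjusted p of 0.000174.

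MYOM2 encodes the myomesin typical of fast fibres and was read at chr27:37650454-37650513 on the minus strand. Control signals were 793, 775, 847 and 714, and HMB-treated signals were 348, 338, 434 and 330. The log2 ratios of -1.19, -1.20, -0.97 and -1.11 gave a mean of -1.12 ± 0.11 (SD, n = 4). The adjusted p of 7.65e-05 was the lowest among the member probes. MYOM1 was 0.10 ± 0.13 (SD, n = 4) lower than MYOM2 on the log2 scale. MYOM1 was the lower of the pair on 3 of 4 arrays, and the mean difference was smaller than its SD (exact sign-flip permutation test, two-sided, p = 0.25). With 4 arrays this test cannot give a p below 0.125, so no conclusion is drawn from it.

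MYBPC1, the slow-fibre myosin-binding protein C, binds the thick filament in the zones that flank the M-band. Its probe, at chr28:25418399-25418458 on the plus strand, had control signals of 4.09 to 4.85 and HMB-treated signals of 5.90 to 7.18. None was well above background, the deposited ratio was 0 on all 4 arrays, and no fold was derived.

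**Figure D2:**
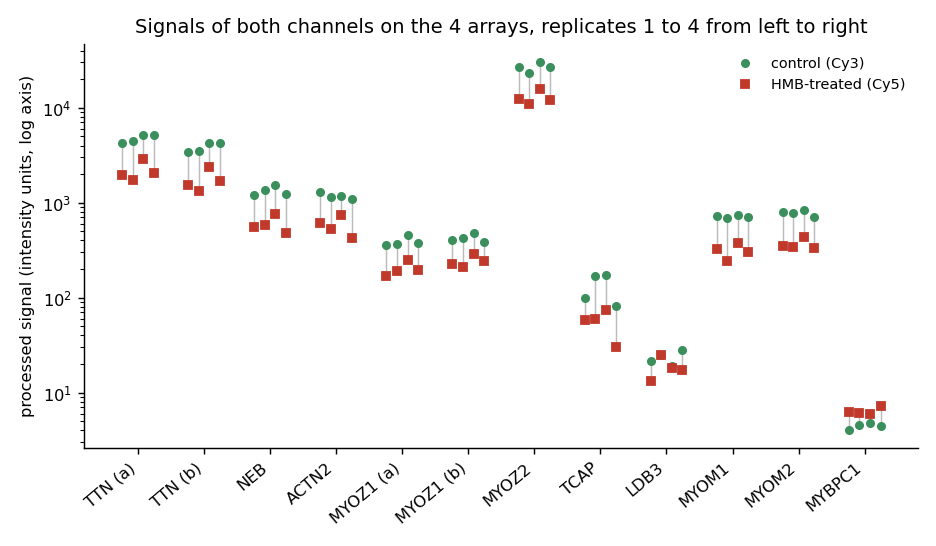
Processed signal of the control (Cy3, circles) and HMB-treated channel (Cy5, squares) for all 12 member probes on a log axis, with the 4 arrays from left to right and a line joining the channels of 1 array. For the 10 tested probes every square lies below every circle, whereas LDB3 and MYBPC1 sit near background. Heights of different probes are not comparable.

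Under the deposited normalization the 8 tested genes lay between -1.24 and -0.82, and under normexp and loess between -1.10 for MYOZ2 and -0.41 for TCAP. With 1 probe for each gene, the median log2 ratio of the 6 genes of the gene name column was -1.15, and the 4 arrays' own medians were -1.12, -1.20, -0.98 and -1.19 (SD 0.10). With TTN and ACTN2 included the median was -1.14. By place in the sarcomere, the medians were -1.17 for TTN and NEB, -1.06 for the 4 tested Z-disc genes and -1.17 for MYOM1 and MYOM2. Over the 8332 named genes with a tested probe, the median was -0.09, with 17.3% called lower and 10.1% called higher. Between 1.06% and 3.74% of all tested probes had a mean ratio below that of a given member probe. For 6 of the 8 genes, replicate 3 was the least lowered array, and for 5 of the 8, replicate 2 was the most lowered. For the 10 member probes, the median SD of the log2 signal over the 4 arrays was 0.264 in the HMB-treated and 0.145 in the control channel. Over all tested probes it was 0.226 and 0.204. The HMB-treated channel had the larger SD in 10 of the 10 member probes and in 57.4% of all tested probes.

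**Figure D3:**
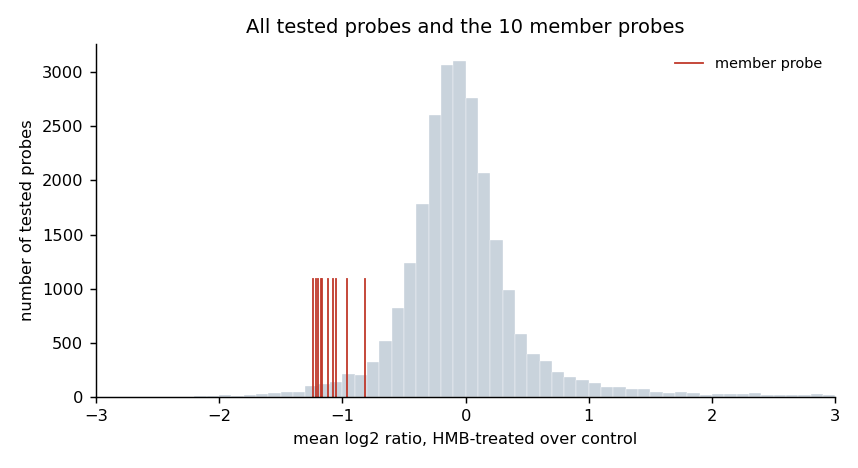
Number of tested probes by mean log2 ratio in bins of 0.1, with the 10 tested member probes as vertical lines. The members lie between -1.24 and -0.82, in the lower tail. Outside the axis are 248 probes, all of them above 3.

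Families were compared within arrays, since several members have relatives that muscle or other cells express. The 11 pairs were chosen after their values were seen, and with 4 arrays an exact sign-flip test cannot give a two-sided p below 0.125, so no pair could pass 0.05. Among alpha-actinins, ACTN3 of fast fibres fell with a mean log2 ratio of -1.28 ± 0.26 (SD, n = 4; adjusted p = 0.00026). ACTN1, a non-muscle alpha-actinin, had -0.48, -0.38, 0.23 and 0.08 on the 4 arrays (adjusted p = 0.412) in its brighter probe, whose mean of -0.14 turned to 0.12 under median centring and was called lower, at -0.63, under spike-in scaling (adjusted p = 0.00661). Its other probe was called lower, at -0.46 (adjusted p = 0.0286), with a ratio below 0 on 4 of 4 arrays, so the 2 probes disagreed. The non-muscle ACTN4 fell by 0.49 ± 0.26 (SD, n = 4; adjusted p = 0.0114). ACTN2 was below the brighter ACTN1 probe by 0.91 ± 0.37 and below ACTN4 by 0.56 ± 0.17 on the log2 scale (SD, n = 4), on 4 of 4 arrays each (exact p = 0.125, adjusted over the pairs 0.196). Against the other ACTN1 probe the gap was 0.59 ± 0.29 (SD, n = 4), on 4 of 4 arrays.

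Myozenins did not move together. While MYOZ1 and MYOZ2 fell, MYOZ3 rose, with log2 ratios of 1.45, 1.25, 0.96 and 1.22 and a mean of 1.22 ± 0.20 (SD, n = 4; adjusted p = 0.000169). Its control signals were 101, 111, 139 and 87.6 and its HMB-treated signals 274, 264, 269 and 203, so the groups did not overlap and both channels were above background. MYOZ3 kept its rise under all 5 other corrections and scalings, with values from 0.70 to 1.26. MYOZ2 was below MYOZ3 by 2.29 ± 0.29 on the log2 scale (SD, n = 4), on 4 of 4 arrays (exact p = 0.125, adjusted over the pairs 0.196). The third myomesin gene, MYOM3, fell by 1.11 ± 0.32 (SD, n = 4; adjusted p = 0.000874), and MYOM2 differed from it by 0.01 ± 0.26, with both signs among the arrays (exact p = 1). Under normexp and loess MYOM3 was at -0.43.

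Among relatives of nebulin, NRAP, a nebulin-like anchoring protein of forming myofibrils, fell by 1.20 ± 0.37 (SD, n = 4; adjusted p = 0.00102), and under normexp and loess it was at -0.48. LASP1, a small nebulin-family protein of many cell types, had a mean of -0.27 ± 0.26 (SD, n = 4; adjusted p = 0.0722), and under spike-in scaling it was called lower, at -0.76 (adjusted p = 0.00165). NEB was below LASP1 by 0.90 ± 0.22 (SD, n = 4), on 4 of 4 arrays (exact p = 0.125, adjusted over the pairs 0.196). For LDB3, whose own probe had no signal, the related PDLIM genes went in different directions. PDLIM1 fell by 0.48 ± 0.13 (SD, n = 4; adjusted p = 0.00279) and PDLIM3 by 1.12 ± 0.16 (SD, n = 4; adjusted p = 0.000152). PDLIM7 rose, at 0.41 (adjusted p = 0.00997), and PDLIM5 was not called, at 0.13 (adjusted p = 0.197). PDLIM4 had a mean of 0.16 ± 0.09 (SD, n = 4; adjusted p = 0.0851), which turned to -0.33 under spike-in scaling. Over 5 relatives that are not confined to the sarcomere (ACTN1, ACTN4, LASP1, PDLIM1 and PDLIM4), the median was -0.27, with 2 called lower and 3 not called. Over all named genes 17.3% were called lower. Under spike-in scaling 4 of the 5 were called lower, all but PDLIM4. Under median centring, ACTN4 at -0.35 and PDLIM1 at -0.31 were no longer called.

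A list of 30 other Z-disc genes was read from the same fit, and 27 had a tested probe. Of these, 19 were called lower, 3 higher and 5 were not called, with a median of -0.82 beside -0.09 over all named genes. Over all named genes 17.3% were called lower and 10.1% higher. The count called lower was 16 after normexp and loess, and lay between 14 with limma's treat and 22 under spike-in scaling. It includes MYPN, with an adjusted p of 0.0474 and a ratio of 0.14 in replicate 4. All 5 MYPN probes were called lower, but they start between bases 4371 and 4383 of the transcript, overlap and are not separate readings. The call of the brightest was lost without replicate 1, 2 or 3. The largest fall was that of MYOT, or myotilin, an actin-bundling partner of alpha-actinin, at -1.87 ± 0.21 (SD, n = 4; adjusted p = 3.24e-05). ITGB1BP2, or melusin, which binds integrin at the muscle membrane, had -1.61 ± 0.14 (adjusted p = 2.41e-05), and LMOD3, a leiomodin that nucleates actin, had -1.44 ± 0.17 (adjusted p = 6.22e-05). XIRP2, an actin-binding protein of the Xin family, had ratios of -2.25, -2.74, -1.74 and 0.58, a mean of -1.54 ± 1.47 (SD, n = 4) and an adjusted p of 0.0475. Its HMB-treated signal was well above background only in replicate 4, and the call was lost without replicate 1, 2 or 3 (adjusted p up to 0.15) and after loess without background correction (adjusted p = 0.0731). MYOT fell under each of the 5 other corrections and scalings but by less under normexp and loess, at -0.79.

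Rising Z-disc genes were MYOZ3, PDLIM7 and CAPZB. PDLIM7, or enigma, a scaffold also found outside muscle, rose by 0.41 ± 0.19 (SD, n = 4; adjusted p = 0.00997). CAPZB, a subunit of the protein that caps actin at the Z-disc and in other cells, rose by 0.38 ± 0.11 (SD, n = 4; adjusted p = 0.00578). Both turned negative under spike-in scaling, at -0.08 and -0.11, and CAPZB was not called after normexp and loess or after the GC correction. PDLIM7 was not called without replicate 3 and CAPZB without replicate 1 or 4, since the FC then fell under 1.3. No gene of this list or the next had probes called in opposite directions.

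Of 17 other M-band and thick filament genes, 12 had a tested probe, of which 9 were called lower, 1 higher and 2 were not called, with a median of -0.91. Over all named genes 17.3% were called lower and 10.1% higher. TRIM55 and TRIM63, or MuRF2 and MuRF1, are ubiquitin ligases that bind titin near the M-band. TRIM55 had -1.19 ± 0.08 (SD, n = 4; adjusted p = 4.46e-05) and TRIM63 had -1.17 ± 0.16 (SD, n = 4; adjusted p = 0.000124). TRIM63 was at -0.48 under normexp and loess. MYOM3, given above, was also among the largest falls. FHL2, an adaptor that docks on titin and is also found outside muscle, rose by 0.56 ± 0.25 (SD, n = 4; adjusted p = 0.00568), and under spike-in scaling it was at 0.08 and was not called.

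**Figure D4:**
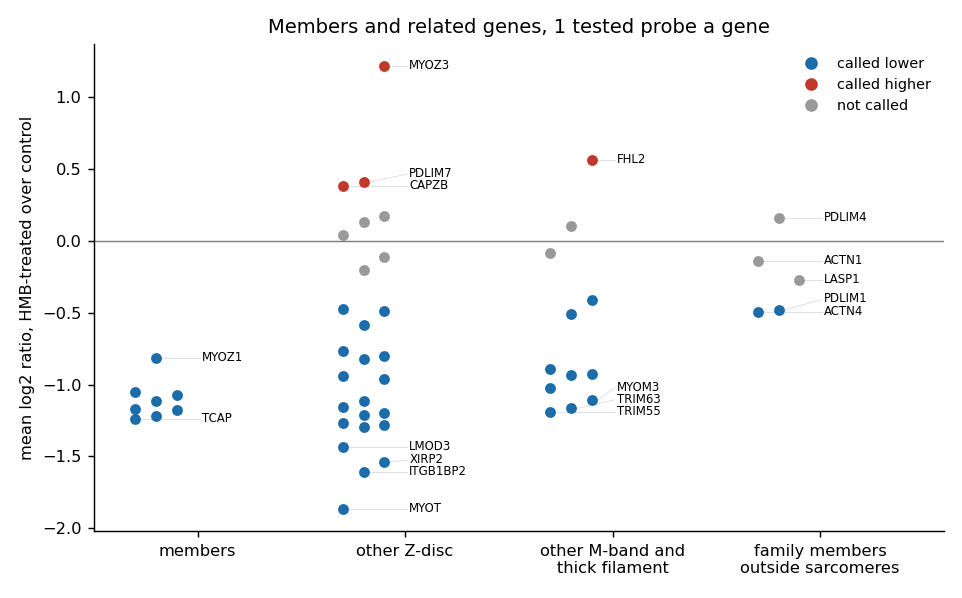
Mean log2 ratio of 1 tested probe a gene, coloured by call, for the 8 tested members, 27 other Z-disc genes and 12 other M-band and thick filament genes. The last column, labelled outside sarcomeres, holds 5 related genes that are not confined to the sarcomere. The members lie between -1.24 and -0.82, and the other Z-disc genes from -1.87 for MYOT to 1.22 for MYOZ3.

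Markers of some cell types changed as well, in different directions, and their part in the result was not tested. In bulk RNA, fewer muscle cells and less of these transcripts in each cell cannot be told apart. Of 8 myogenic markers, 7 were tested and 5 were lower (MYF5, DES, CDH15, NCAM1 and CKM), with a median of -0.93. For this and the other marker counts, the shares over all named genes were 17.3% called lower and 10.1% called higher. MYOD1 and MYOG, the regulators of myoblast commitment and differentiation, had means of 0.32 (adjusted p = 0.0441, under the FC threshold) and 0.03 (adjusted p = 0.807). A second MYOD1 probe had a mean of -0.11 (adjusted p = 0.417), so its direction differed by probe. Under spike-in scaling MYOD1 turned to -0.17 and MYOG was called lower, at -0.46 (adjusted p = 0.0102), and MYOG also turned negative, at -0.01, after the GC correction. PAX7, the marker of quiescent satellite cells, was not above background on any array. CKM is also counted in the list of M-band genes. Summed over the brightest probe of each myogenic marker, the signal was 30480 to 37750 in control and 12960 to 20450 in HMB-treated channels. Of 6 fibroblast markers, 4 were higher (PDGFRA, DCN, LUM and THY1) and the other 2 were not called, with a median of 0.59 and summed signals of 221800 to 259600 in control and 252000 to 387100 in HMB-treated channels. Under spike-in scaling, only PDGFRA of these 4 was called higher, at 1.01, and LUM was at -0.06. LUM was also not called after normexp and loess, at 0.37. PDGFRA, whose control signals were 28.4 to 36.3, was at 0.47 after normexp and loess and was still called. COL3A1 was not called in its brightest probe, at 0.06, but some dimmer COL3A1 probes were called higher, at up to 0.42. That brightest probe, with control signals of 129669 to 158708, made up most of the fibroblast sum. The sum thus mainly reflects a marker that was not called. Of 4 leukocyte markers, PTPRC at 0.51 and CD68 at 0.88 were higher, CD14 was not called and ITGAM was not above background, with summed signals of 15830 to 20150 in control and 19290 to 30900 in HMB-treated channels. CD68 was at 0.39 both after normexp and loess and under spike-in scaling, where PTPRC was at 0.02 and not called. The brightest PTPRC probe, with control signals of 12172 to 15755, made up most of the leukocyte sum. Among probes of PTPRC brightness differed widely and several were not above background. Overlapping PTPRC probes that start at bases 302, 303 and 304 of the transcript were above background on some arrays only and were not tested. Their mean ratios were -1.23, -0.73 and -0.71, opposite in direction to the brightest probe. All 4 endothelial markers, and PLIN1 and LEP of 3 adipocyte markers, were not above background on any array.

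The calls of the member probes were kept under each alternative run. In all 159 combinations of a tested member probe and an alternative that could be computed, the direction and the call were kept. Many of these reused the deposited ratios unchanged, such as the authors' own table and runs that changed only the probe filter or the test. They are therefore no separate readings. Sizes did move. With normexp and loess, the 2 MYOZ1 probes were at -0.55 and -0.52 in place of -0.96 and -0.82, and TTN and MYOZ2 were at or below -1.09. Scaling to the spike-in RNA, chosen after the data were seen, shifted the median of all tested probes by -0.49 on the log2 scale to -0.56, and the member probes then lay between -1.73 and -1.30.

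**Figure D5:**
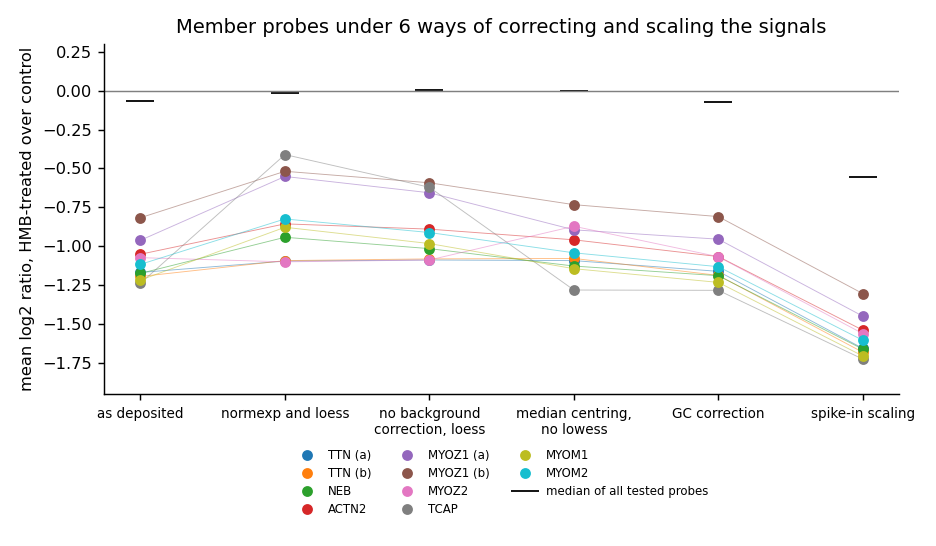
Mean log2 ratio of the 10 tested member probes under the deposited normalization and 5 other corrections or scalings, with the median of all tested probes as a black bar. Every point is below the bar of its column. TCAP moved the most, from -1.24 to -0.41 with normexp and loess.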

How the data were processed

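The authors extracted 4 two-colour Agilent horse arrays with Feature Extraction (version 10.10.1.1 per the file headers). In the deposited files, intensity columns hold each channel's mean, background and processed signal, the latter after background subtraction and linear and lowess dye normalization. The deposited log10 ratio is Cy5 (HMB-treated) over Cy3 (control). Set against these, the authors' table of log10 ratios differed by at most 3.96e-05. The log2 ratios were computed here from the deposited log10 values. Controls were left out, as were 13 to 35 spots an array with a non-uniformity or outlier flag, and spots of 1 probe were averaged.

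Ratios were tested against 0 with limma 3.58.1 in R 4.3.3, with Benjamini-Hochberg adjustment over all 24670 probes with a ratio on at least 3 arrays. Where a gene had several tested probes, the one with the highest mean log2 intensity stands for it. Tests were tried on simulated data. The members, lists and tests were chosen with earlier results of these data known. Named were all members and, in the lists of other Z-disc and of M-band genes, the 4 called genes with the largest fall and the 4 with the largest rise in each. One gene that this rule names is not reported here. Genes in the families and marker lists are named besides. No genome of the files' build was used, and TTN, MYOZ1 and MYOZ2 probe sequences, whose place in the transcript (coding or UTR) no source used here gives, are not printed.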

Additional observations from a re-analysis of the deposited data

Results flagged for a closer look

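CKM, muscle creatine kinase, which binds at the M-band, had a ratio of -0.61 in replicate 3 that stood apart from -1.07, -1.02 and -1.04 in the other arrays by Dixon's test. This was 1 of 54 probes examined, and chance alone flags about 1 in 20. CKM was called lower with and without this array.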

How the results depend on the processing

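The counts of member probes (7) and member genes (6) called lower stayed within 1.5 times under every alternative run. Their median of -1.15 was -0.85 after normexp and loess, -0.95 after loess without background correction and -1.63 after spike-in scaling. The count of all called probes, 7046, was 3539, 4440 and 18571 under the same 3 settings and 2822 with limma's treat. Of the other M-band and thick filament genes, 5 were called lower after normexp and loess in place of 9. The cause of these changes was not tested. With both channels required above background, TCAP was not tested. The planned scaling to nominal spike-in ratios was not run, since the values used here do not include them; the spike-in intercept in the file headers was used in its place and was chosen after the data were examined. No paired analysis was possible because each array is already 1 ratio of a pair.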
